A study of Mus musculus with 4 samples.

Results

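*Gja1*, *Gjb2*, *Gjb6* and *Gjb5* encode the skin connexins Cx43, Cx26, Cx30 and Cx31.1. They were chosen by gene symbol, 4 genes of the 32286 features counted by spatial transcriptomics in mouse dorsal skin. The mice carried *CreERT* at the *Krox20* locus, which limits the recombinase to *Krox20*-expressing cells, together with the *R26-tdTomato* reporter. All of them received 4-hydroxytamoxifen at P2 and gave skin at P38. Each of 4 Visium slices held 1 section from each of the same 3 mice. All mice shared the genotype and the induction, so the groups compared here are regions of the skin, measured in every slice. The slices are technical replicates of these mice, and errors (SD, n = 4) and p-values measure the spread between slices and not between mice.

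Connexins are membrane proteins that assemble into channels, and the channels of neighboring cells dock to form gap junctions through which ions and small molecules pass. In skin, keratinocytes of the epidermis and of the hair follicle use several connexins at once, and the set changes with differentiation. In humans, inherited changes in *GJB2* and *GJB6* cause deafness and disorders of skin and hair. *Gja1* belongs to the alpha group of connexins and is made by many cell types, fibroblasts included, whereas *Gjb2*, *Gjb6* and *Gjb5* belong to the beta group and are characteristic of epithelia.

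In GENCODE M21 (GRCm38), *Gja1* (ENSMUSG00000050953) lies at chr10:56377330-56402513 on the plus strand. *Gjb2* (ENSMUSG00000046352, chr14:57098600-57104702) and *Gjb6* (ENSMUSG00000040055, chr14:57123303-57133611) are neighbors on the minus strand, 18600 bases apart. *Gjb5* (ENSMUSG00000042357) lies at chr4:127354809-127358181 on the minus strand. No other annotated gene overlaps any of the 4 genes. The 250 bases before each RefSeq start site (GRCm38.p6) are printed because the genes differ in how they are distributed over the regions. They were read at chr10:56377050-56377299 on the plus strand for *Gja1* and on the minus strand at chr14:57104703-57104952 for *Gjb2*, chr14:57133612-57133861 for *Gjb6* and chr4:127358165-127358414 for *Gjb5*. Capitals mark matches to 4 motifs searched on both strands, namely GGGCGG (the letters of Sp1 sites), TATAAA (the core promoter box), TGANTCA (the letters of AP-1 sites) and GCGNGGGCG (the letters of EGR sites, the family of *Krox20*).
Gja1: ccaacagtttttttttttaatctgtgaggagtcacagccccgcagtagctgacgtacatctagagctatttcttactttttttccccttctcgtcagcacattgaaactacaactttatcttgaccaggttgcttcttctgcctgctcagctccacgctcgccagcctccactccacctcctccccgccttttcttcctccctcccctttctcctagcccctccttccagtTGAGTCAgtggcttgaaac
Gjb2: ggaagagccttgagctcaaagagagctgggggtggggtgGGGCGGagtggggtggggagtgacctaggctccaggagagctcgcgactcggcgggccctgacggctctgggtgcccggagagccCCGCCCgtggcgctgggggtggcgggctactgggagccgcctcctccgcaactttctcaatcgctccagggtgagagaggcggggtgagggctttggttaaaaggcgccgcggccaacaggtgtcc
Gjb6: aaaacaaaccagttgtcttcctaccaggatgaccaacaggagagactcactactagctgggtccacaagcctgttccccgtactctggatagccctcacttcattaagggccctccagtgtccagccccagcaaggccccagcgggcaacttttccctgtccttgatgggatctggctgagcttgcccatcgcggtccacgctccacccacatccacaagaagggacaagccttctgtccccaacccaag
Gjb5: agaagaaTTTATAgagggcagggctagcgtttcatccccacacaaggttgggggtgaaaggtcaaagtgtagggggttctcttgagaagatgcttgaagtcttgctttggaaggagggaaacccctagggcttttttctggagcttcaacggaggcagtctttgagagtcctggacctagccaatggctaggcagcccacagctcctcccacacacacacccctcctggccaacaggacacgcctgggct

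The *Gja1* sequence held TGANTCA, 19 bases before the start. The *Gjb2* sequence held GGGCGG at 211 bases on its own strand and at 126 bases on the opposite strand. The *Gjb5* sequence held TATAAA on the opposite strand at 243 bases, and that of *Gjb6* held none of the 4 motifs. GCGNGGGCG was in none of these windows, and no 2 of the marked matches overlapped. Of 32851 promoters of the same length, 32.7% held GGGCGG, 12.4% TATAAA, 6.75% TGANTCA and 4.70% GCGNGGGCG.

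Slices held between 19393026 and 26910422 unique molecular identifiers (UMIs), and 6411 of 6420 spots were kept, with a median of 12618 UMIs. Each spot covers several cells, which may be of different types. Spots were clustered without any connexin or pannexin gene, and 7 of 12 clusters, named from marker genes, made up 6 regions. The epidermal region (853 spots) was led by *Lor*, *Krt10* and *Krt1*. The upper follicle (971 spots) joined a cluster of 719 spots led by *Atp12a* and *Plet1* and a sebaceous cluster of 252 spots with *Cidea* and *Scd3*. In the epidermal region, the summed markers of infundibulum and isthmus reached 71.0% of their upper follicle level, and the sebaceous markers 58.8%. Markers of the epidermis reached 9.78% of their epidermal level in the upper follicle. The lists of the upper follicle thus separated these regions less than that of the epidermis. Fibroblast markers summed to 38556 CPM in the epidermal region, and markers of the epidermis to 21414 CPM. The outer root sheath region (829 spots, 63 of them in slice 1) had *Krt14* among its leading genes, and 5 of its 11 markers rose at least 1 log2 unit over the other spots. Summed, these 11 markers reached 92.1% of their outer root sheath level in the upper follicle and 56.9% in the epidermal region. The list as a whole thus separated the outer root sheath little from the upper follicle. The hair shaft region (798 spots) was led by *Krt32*, and 5 of its 8 markers rose at least 1 log2 unit. So did 6 of 8 inner root sheath markers. Summed, the inner root sheath markers reached 66642 ± 2573 CPM in this region and the hair shaft markers 19839 ± 4674 CPM. The name hair shaft region thus covers spots with RNA of both. No cluster took the name of the inner root sheath. The matrix region (898 spots) was led by *Mt2* and *Mt1* and also had *Top2a*, and 4 of its 6 markers rose at least 1 log2 unit. Summed, these 6 markers reached 65.8% of their matrix level in the hair shaft region and 58.0% in muscle. The muscle region (851 spots) had *Acta1* and *Myh1*. Another 273 spots, 97.8% of them from slice 1, shared leading genes with the outer root sheath region and stayed outside it. Levels are given as CPM, in which the UMIs of a gene in a set of spots are scaled to the total of those spots. In such sums, fewer cells of a type and less RNA per cell cannot be told apart.

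**Figure D1:**
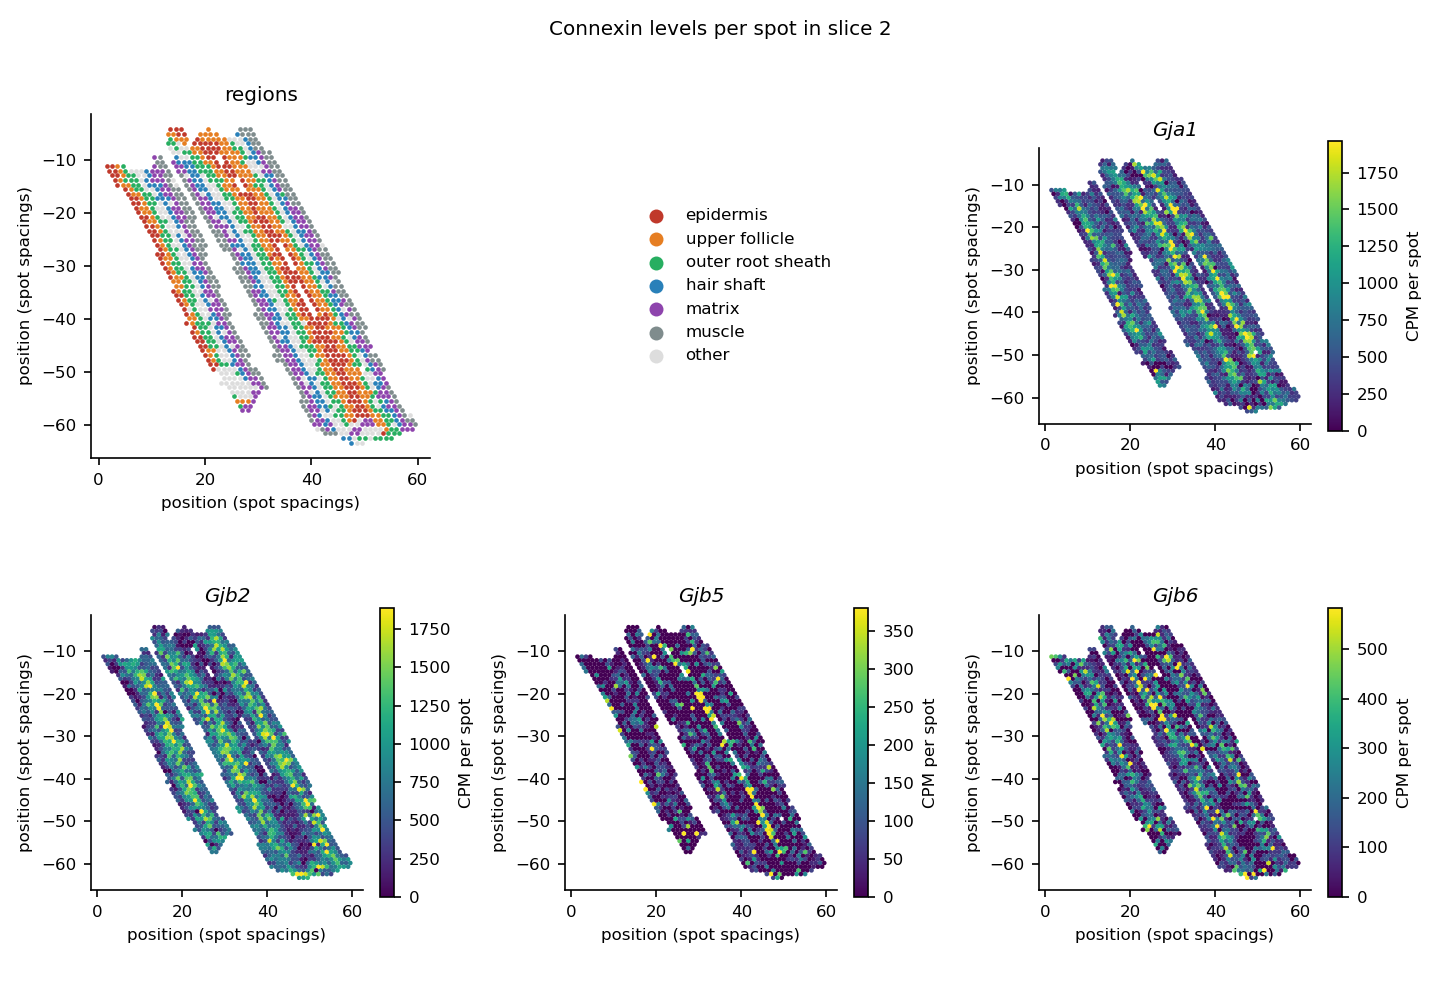
Map of slice 2, with both axes in spot spacings. The first panel colors each spot by region, and the other panels color each spot by its CPM of a connexin (color scale capped at the percentile 98 of the spots). High *Gja1* spots follow the upper follicle and outer root sheath bands, high *Gjb5* spots the epidermal band, and high *Gjb2* spots the bands between outer root sheath and matrix.

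Each connexin was detected in every region and had its own order of regions. Over all kept spots there were 58315 UMIs of *Gja1*, 78808 of *Gjb2*, 13586 of *Gjb6* and 5566 of *Gjb5*, and all 4 genes passed the filter on low counts. Of 60 differences (4 genes in 15 pairs of regions), 50 passed the edgeR test at an adjusted p of 0.05. *Gja1* and *Gjb2* each differed in 14 of 15 pairs, *Gjb6* in 12 and *Gjb5* in 10. All 4 connexins differed between the epidermal region and the upper follicle, the outer root sheath and the hair shaft region, where 21.5%, 37.8% and 59.8% of all 12678 genes tested also differed. In 3 of 4 the epidermal region differed from matrix (69.8% of all genes) and from muscle (57.1%). For the upper follicle, 3 of 4 differed from the outer root sheath (25% of all genes), 4 from the hair shaft region (61.7%), 3 from matrix (70.6%) and 4 from muscle (57.8%). For the outer root sheath, 4 differed from the hair shaft region (51.6%), 3 from matrix (62.3%) and 3 from muscle (48.8%). The hair shaft region differed from matrix in 3 of 4 (54.8%) and from muscle in 4 (55.8%), and matrix differed from muscle in 1 (51.6%). The clustering that defined the regions used 2000 variable genes, from which the connexins were left out. Many of all genes tested differed in each pair, so these counts do not set the connexins apart. The sizes and order of the connexin differences are given below.

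*Gja1* was highest in the outer root sheath and the upper follicle and lowest in the epidermal region. In the outer root sheath its level was 979, 1210.0, 1202 and 1277 CPM in slices 1 to 4 (mean 1167 ± 129.8). In the upper follicle it was 820.2, 1011, 963 and 1095 CPM (972 ± 115). In the epidermal region it was 301, 365, 372 and 379 CPM (354 ± 36.0). All 8 values of the outer root sheath and upper follicle lay above every value of the other regions. The hair shaft region (491 ± 45.9 CPM), matrix (524 ± 28.3 CPM) and muscle (404 ± 24.4 CPM) lay between, and the highest epidermal slice overlapped the lowest muscle slice (375 CPM).

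*Gja1* was 3.27-fold higher in the outer root sheath than in the epidermal region (log2 -1.71 for the epidermal region over the outer root sheath, edgeR adjusted p = 2.88e-16). The upper follicle was 2.72-fold above the epidermal region (log2 -1.44 with a standard error of 0.09, again as epidermal over follicle, edgeR adjusted p = 4.29e-14). Against muscle, the outer root sheath was 2.77-fold and the upper follicle 2.30-fold higher (edgeR adjusted p = 3.69e-15 and 3.79e-13). The outer root sheath exceeded the hair shaft region by 2.17-fold and the upper follicle exceeded it by 1.80-fold (edgeR adjusted p = 3.69e-12 and 8.41e-10). The last difference fell from 0.85 to 0.15 log2 units and lost the call when regions were drawn from marker scores without clusters. The difference between outer root sheath and upper follicle was small (1.20-fold, edgeR adjusted p = 0.0236), and their slices overlapped. As log2 of upper follicle over outer root sheath it was -0.27, and it lost the call without slice 2 (-0.26, adjusted p = 0.125), without slice 3 (-0.25, adjusted p = 0.147) and without the sebaceous cluster (-0.061).

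Within the upper follicle, the 2 clusters stood apart for 3 of the 4 connexins, which was not tested. For *Gja1*, the cluster of infundibulum and isthmus held 932 to 1257 CPM over slices (1114 ± 138), and the sebaceous cluster held 451 to 604 CPM (537 ± 64.0), without overlap. *Gjb2* held 511 to 628 CPM against 328 to 427 CPM, and *Gjb6* 166 to 185 CPM against 89.1 to 131 CPM, also without overlap. *Gjb5* was at 36.1 ± 6.43 and 36.2 ± 6.98 CPM. Markers of fibroblasts, which also make *Gja1*, summed to 35671 to 41926 CPM in the epidermal region, 18514 to 27689 CPM in the upper follicle and 6683 to 8495 CPM in the outer root sheath. The epidermal region had the lowest *Gja1* and the highest sum of these markers. All 8 fibroblast markers were detected in every region, and their part in the *Gja1* levels was not tested.

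*Gjb2* had a different order, with its highest level in the hair shaft region and its lowest in the epidermal region. In the hair shaft region its level was 1227, 1320.5, 1498 and 1605 CPM (mean 1413 ± 170.4). In the outer root sheath it was 921, 921, 1109 and 1165 CPM (1029 ± 127), and in matrix 741, 685, 816 and 957 CPM (799.7 ± 118). In the upper follicle it was 497, 464, 513 and 578 CPM (513 ± 47.8), and in the epidermal region 369, 293, 449 and 387 CPM (375 ± 64.3). The hair shaft slices lay above all slices of every other region, and the epidermal slices lay below all others. In muscle *Gjb2* held 629, 629.8, 760.0 and 735 CPM (688 ± 69.1), which overlapped matrix.

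The hair shaft region exceeded the epidermal region 4.10-fold in *Gjb2*, a log2 difference of -2.04 (epidermal over hair shaft) with a standard error of 0.11 (edgeR adjusted p = 3.82e-17). It exceeded the upper follicle 3.02-fold (edgeR adjusted p = 1.03e-14), matrix 1.95-fold (1.11e-09) and the outer root sheath 1.51-fold (1.10e-05). The outer root sheath was 2.01-fold above the upper follicle (edgeR adjusted p = 2.42e-09), so that *Gjb2* separated these neighboring regions while *Gja1* differed there by 1.20-fold. The upper follicle was 1.36-fold above the epidermal region (edgeR adjusted p = 0.00161), a call that was lost with 16 clusters and with regions drawn from marker scores. The outer root sheath exceeded matrix 1.30-fold (edgeR adjusted p = 0.00184) and muscle 1.43-fold (7.62e-05). Both calls were lost and turned with 16 clusters, where 271 of the 671 outer root sheath spots lay in the region used here. The call against matrix was also lost with regions drawn from marker scores. Matrix and muscle differed by 1.10-fold, a difference that did not pass the test (edgeR adjusted p = 0.241) and passed it with the slice number as a block (0.14 log2 units, adjusted p = 0.039). Markers of other cells moved with the contrast of epidermal and hair shaft regions. Fibroblast markers summed to 1312 to 1840.4 CPM in the hair shaft region and 35671 to 41926 CPM in the epidermal region, and 7 immune markers to 101 to 152 CPM and 2103 to 2807 CPM. Their part in the differences of the 4 connexins was not tested.

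*Gjb6* rose from the upper follicle to the hair shaft region and was low in the epidermal region, matrix and muscle. In the hair shaft region its level was 203, 204, 221 and 213 CPM (mean 210.2 ± 8.28), and in the outer root sheath 151, 188, 234 and 206 CPM (195 ± 34.5). In the upper follicle it was 166, 149.9, 153 and 171 CPM (160.1 ± 10.3). The epidermal region held 87.6, 75.0, 94.6 and 80.9 CPM (84.5 ± 8.48), close to matrix (79.8 ± 4.41 CPM) and muscle (85.0 ± 6.85 CPM). All slices of the first 3 regions lay above all slices of the last 3. The outer root sheath had the widest spread, and its lowest slice was slice 1, where the region held 63 spots. With the 273 spots found mostly in slice 1 joined to it, the outer root sheath held 205 ± 20.7 CPM of *Gjb6*, 1151 ± 155 CPM of *Gja1*, 1019 ± 138 CPM of *Gjb2* and 40.5 ± 5.54 CPM of *Gjb5*.

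The hair shaft region exceeded matrix 2.91-fold in *Gjb6* (log2 1.54, edgeR adjusted p = 9.80e-16), the epidermal region 2.71-fold (1.33e-14) and muscle 2.60-fold (1.61e-14). The upper follicle was 1.87-fold above the epidermal region (edgeR adjusted p = 6.32e-09). The epidermal region differed from matrix by 0.10 log2 units (edgeR adjusted p = 0.345) and from muscle by -0.06 (0.636), and neither passed the test. Between the outer root sheath and the hair shaft region *Gjb6* differed 1.17-fold (log2 -0.23, edgeR adjusted p = 0.0279), a call that was lost without slice 1 (-0.14, adjusted p = 0.197) and without slice 2 (-0.20, adjusted p = 0.141). It was also lost with library size alone (-0.086), RPCA integration (-0.13) and strips as units (-0.14). The upper follicle lay below the outer root sheath (log2 -0.30, edgeR adjusted p = 0.0114), a call lost without slice 2 (-0.29, adjusted p = 0.0840) and without slice 3 (-0.19, adjusted p = 0.240). It was also lost with 16 clusters (-0.041), where 271 of the 671 outer root sheath spots lay in the region used here, and without the sebaceous cluster (-0.15).

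*Gjb5* was the only one of the 4 connexins with its highest level in the epidermal region. Its level there was 149, 155, 148 and 149.9 CPM (mean 150.3 ± 3.01). A second high level appeared in the hair shaft region, with 101, 108, 108 and 89.4 CPM (102 ± 8.67). The remaining regions held between 27.4 and 45.5 CPM in any slice, with means of 36.1 ± 6.22 in the upper follicle, 37.8 ± 3.45 in the outer root sheath, 40.3 ± 2.69 in matrix and 42.8 ± 2.07 in muscle. The epidermal slices lay above all hair shaft slices, and these lay above all slices of the other 4 regions.

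The epidermal region exceeded the upper follicle 4.18-fold in *Gjb5*, a log2 difference of 2.06 with a standard error of 0.11 (edgeR adjusted p = 2.06e-16). It exceeded the outer root sheath 3.99-fold (edgeR adjusted p = 3.19e-16), matrix 3.79-fold (1.25e-17), muscle 3.39-fold (3.87e-16) and the hair shaft region 1.35-fold (1.47e-04). The hair shaft region was 3.10-fold above the upper follicle (edgeR adjusted p = 8.06e-15) and 2.81-fold above matrix (1.22e-14). Among the 4 low regions, only upper follicle against muscle passed (log2 -0.30, edgeR adjusted p = 0.024), and that call was lost without slice 2 (-0.32, adjusted p = 0.0551) and without slice 3 (-0.18, adjusted p = 0.255). Its direction turned with RPCA integration (0.18) and with regions from marker scores (0.056), without passing the test. The other 5 pairs gave edgeR adjusted p-values from 0.0933 to 0.748. Outer root sheath against muscle, the pair at 0.0933, passed with 16 clusters, in thinned spots and with strips as units, lower in the outer root sheath. Outer root sheath against matrix passed with regions from marker scores, also lower in the outer root sheath. Changes for matrix against muscle are given below. The epidermal level depended on how widely the region was drawn. It was 225 ± 18.3 CPM in the 429 epidermal spots that clustering after RPCA integration kept, and 229.7 ± 20.3 CPM in the 412 spots of a clustering into 16.

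**Figure D2:**
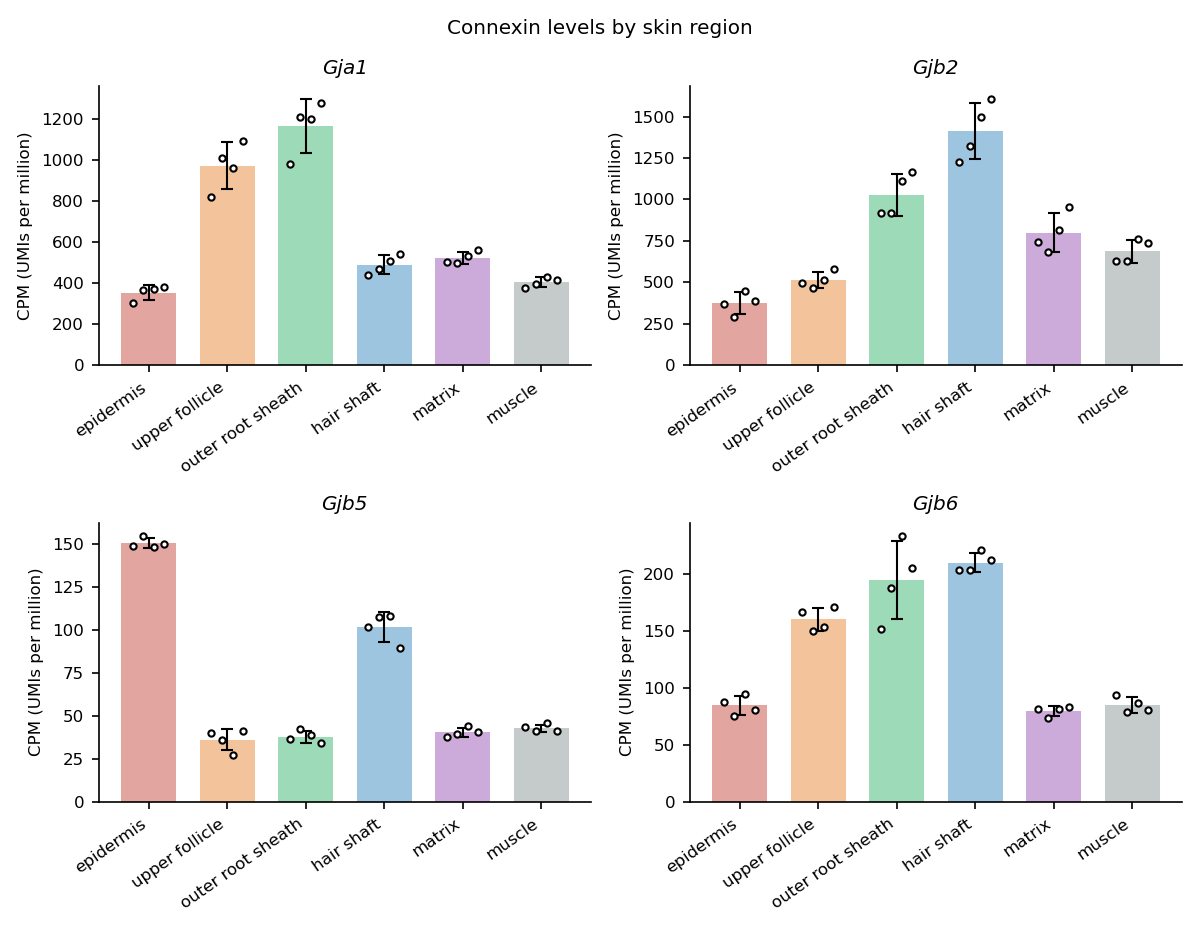
Levels of the 4 connexins in CPM (y axis) in 6 skin regions (x axis). Bars give the mean over 4 slices, whiskers the SD and circles the slices 1 to 4 from left to right. *Gja1* peaks in the outer root sheath (1167 CPM), *Gjb2* and *Gjb6* in the hair shaft region (1413 and 210.2 CPM) and *Gjb5* in the epidermal region (150.3 CPM).

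**Figure D3:**
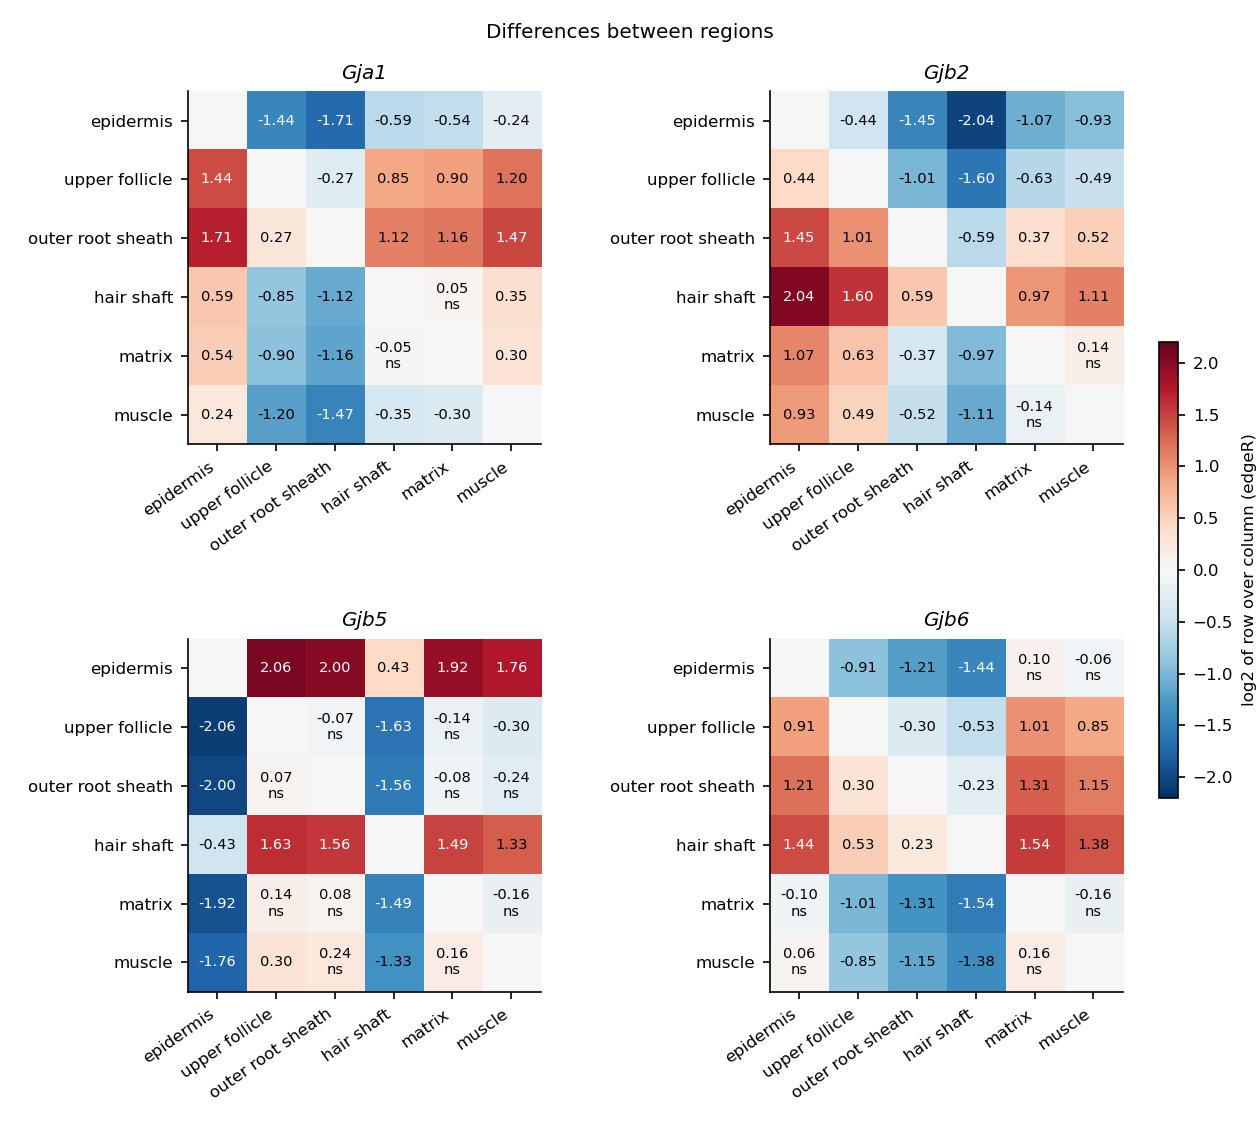
Log2 differences between all pairs of regions for each connexin, as row over column, from the edgeR fit. Red marks higher and blue lower levels in the row region, and ns marks an adjusted p above 0.05. The row of the epidermal region is blue for *Gja1* and *Gjb2* (down to -2.04) and red for *Gjb5* (up to 2.06).

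Matrix and muscle held each connexin at a level far from 0. The muscle region also held RNA of follicle keratins. Its inner root sheath markers summed to 26327 to 29154 CPM, which was 41.0% of their level in the hair shaft region, and its outer root sheath markers to 3196 to 4029.7 CPM, 18.8% of their level in the outer root sheath region. Inner root sheath markers also reached 46.3% of their hair shaft level in the outer root sheath and 38.7% in matrix. In the epidermal region and the upper follicle they reached 23.0%. Markers of the epidermis summed to 525 to 770.4 CPM in muscle, 2.97% of their level in the epidermal region. All 8 inner root sheath markers and 10 of 11 outer root sheath markers had UMIs in muscle. The part of such RNA in the connexin levels of muscle or of the other regions was not tested. *Gja1* was 1.23-fold higher in matrix than in muscle (edgeR adjusted p = 0.00496), whereas *Gjb2*, *Gjb5* and *Gjb6* did not pass the test between these regions. With other regions *Gjb5* and *Gjb6* did pass and were lower in matrix, at log2 -0.49 and -0.35 with 16 clusters and -0.32 and -0.31 with RPCA integration, against -0.16 for both genes in the regions used here. Of the 898 matrix spots, 491 stayed in matrix with 16 clusters and 585 with RPCA integration. *Gjb5* also passed in thinned spots (-0.35) and *Gjb6* with strips as units (-0.19). Strips are 3 parts of each slice and were fitted without a term for the slice, so they are not independent units. With matrix and hair shaft as 1 region, *Gjb2*, *Gjb5* and *Gjb6* were higher there than in muscle, at log2 0.54, 0.54 and 0.58.

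The order of regions could also be read by position, with each spot placed by its distance, in steps of 1 spot, to the closest epidermal spot. Step 0 was the 853 epidermal spots themselves, so its levels repeat those of the epidermal region. Of the 828 spots at step 1, 710 were upper follicle. Median steps were 1 for the upper follicle, 3 for the outer root sheath, 5 for the hair shaft region, 6 for matrix and 7 for muscle. In all 4 slices *Gja1* peaked at step 2, *Gjb2* and *Gjb6* at step 4 and *Gjb5* at step 0. *Gja1* rose from 354 ± 36.0 CPM at step 0 to 1162 ± 162 CPM at step 2 and was 662 ± 91.8 CPM at step 4 and 409 ± 20.1 CPM at step 8. *Gjb2* was 505 ± 40.8 CPM at step 1, 1264 ± 179.8 CPM at step 4 and 691 ± 85.9 CPM at step 8. *Gjb6* was 156 ± 15.6 CPM at step 1, 236 ± 25.9 CPM at step 4 and 83.1 ± 9.31 CPM at step 7. *Gjb5* dropped from 150.3 ± 3.01 CPM at step 0 to 40.2 ± 4.04 CPM at step 1, and it had a second, lower maximum of 77.6 ± 4.42 CPM at step 5.

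Between step 1 and step 4 all 4 slices moved the same way for each connexin. The log2 ratio of step 1 over step 4 was 0.36 ± 0.19 for *Gja1*, -1.31 ± 0.22 for *Gjb2*, -0.60 ± 0.23 for *Gjb6* and -0.66 ± 0.22 for *Gjb5*. Each gave p = 0.125 in an exact two-sided sign-flip permutation test, the smallest p that 4 slices allow. Thus *Gja1* was higher near the epidermal region at step 1 and the 3 beta connexins were higher at step 4, in every slice.

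**Figure D4:**
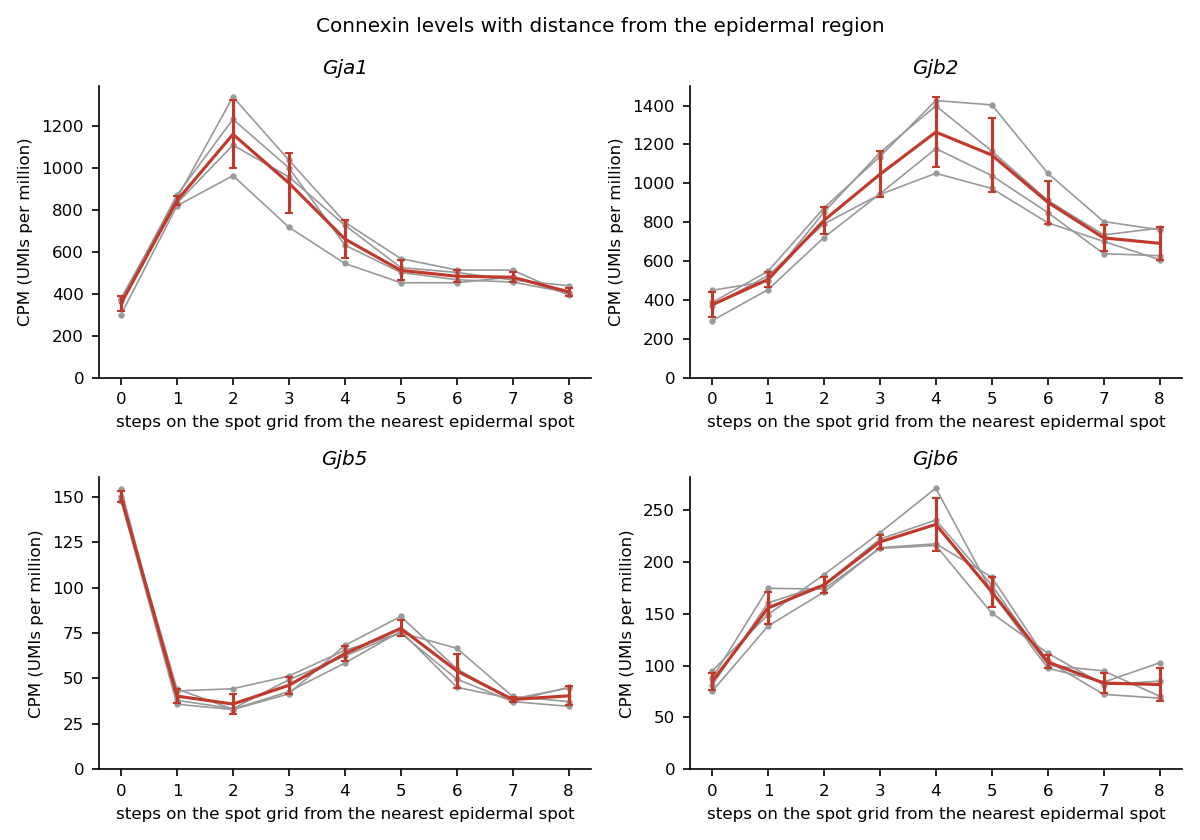
Levels of the 4 connexins in CPM (y axis) against the distance to the closest epidermal spot in steps of 1 spot (x axis). Gray lines are the 4 slices and the red line is their mean with the SD. *Gjb5* is highest at step 0, *Gja1* at step 2, and *Gjb2* and *Gjb6* at step 4.

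The ratio of UMIs of 2 connexins in the same spots does not depend on the depth of the spots, and its change between regions shows where their distributions part. The ratio of *Gja1* to *Gjb2* was 0.967 ± 0.200 in the epidermal region, 1.90 ± 0.216 in the upper follicle, 1.14 ± 0.117 in the outer root sheath and 0.348 ± 0.00992 in the hair shaft region. It was 0.661 ± 0.0598 in matrix and 0.588 ± 0.0288 in muscle. The hair shaft ratio was below that of every other region in all slices, at 0.339 to 0.358. Between upper follicle and hair shaft region the ratio changed by 2.44 ± 0.17 log2 units, in the same direction in 4 of 4 slices.

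*Gjb2* and *Gjb6*, neighbors on chromosome 14, shared the hair shaft region as the highest of the 6 regions used here but not their whole order. Their ratio was 3.20 ± 0.190 in the upper follicle, 4.41 ± 0.424 in the epidermal region and 9.999 ± 1.11 in matrix. In matrix *Gjb2* was 2.10-fold above its epidermal level (edgeR adjusted p = 9.66e-11), and *Gjb6* did not differ past the threshold. The ratio of *Gjb5* to *Gjb6* was 1.79 ± 0.214 in the epidermal region, 0.225 ± 0.0307 in the upper follicle and 0.199 ± 0.0399 in the outer root sheath. It was nearly level over the hair shaft region (0.484 ± 0.0455), matrix (0.506 ± 0.0390) and muscle (0.505 ± 0.0297), so that both genes fell by a similar factor from the hair shaft region to the regions below it. Over 6 connexin pairs and 15 region pairs, 77 of 90 ratios moved the same way in all 4 slices. Those 77 had the smallest p that the exact sign-flip permutation test allows (0.125, adjusted 0.146), so no ratio could pass.

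The share of spots with at least 1 UMI depends on depth, and median UMIs per spot ran from 8815 in the epidermal region to 22343.5 in matrix. Shares were therefore also taken with every spot thinned to 5500 UMIs, which left out 563 shallower spots, from 17 in muscle to 152 in the upper follicle. *Gja1* and *Gjb2* were then found in 83.4% to 100% of spots in every region, as means over slices. Their lowest single slices were in the epidermal region, at 75.7% for *Gja1* and 77.7% for *Gjb2*. *Gjb5* was found in 52.2% ± 3.14 of epidermal spots and 41.5% ± 2.18 of hair shaft spots after thinning (64.5% ± 2.89 and 74.2% ± 5.13 before). The muscle region, set beside these although it also held follicle RNA, had 23.0% ± 2.07 after thinning (45.1% ± 2.71 before), and the upper follicle (19.5%), outer root sheath (18.3%) and matrix (19.5%) were at or below it. *Gjb6* was found in 65.0% ± 10.2 of outer root sheath spots, 64.6% ± 3.81 of hair shaft spots and 55.8% ± 5.09 of upper follicle spots after thinning. Matrix (37.97% ± 3.90) and the epidermal region (36.5% ± 6.44) were close to the muscle share of 36.8% ± 3.94.

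Each slice was also split into 3 strips by position, and sums over strips showed how far the levels varied within a region. *Gjb5* in epidermal strips ran from 115 to 196 CPM, above all strips of the upper follicle, outer root sheath, matrix and muscle (at most 55.6 CPM) and overlapping hair shaft strips (69.2 to 123 CPM). *Gja1* in upper follicle strips ran from 697.8 to 1142 CPM and in outer root sheath strips from 990.0 to 1349 CPM, above all strips of the other regions (at most 582.5 CPM). *Gjb2* ran from 1185 to 1629 CPM in hair shaft strips and from 237 to 465 CPM in epidermal strips.

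Spots outside the 6 regions added to this picture. A cluster of 685 spots led by genes of hair keratin-associated proteins stayed unnamed, with a median of 4 steps from the epidermal region. It had the highest *Gjb6* of all clusters, at 275, 255, 285 and 286 CPM (275 ± 14.4). It held 1106 ± 141 CPM of *Gjb2*, 693 ± 93.9 CPM of *Gja1* and 45.8 ± 2.33 CPM of *Gjb5*. The 103 spots of a cluster led by pigment cell genes held 71.2 ± 6.56 CPM of *Gjb5* and 787 ± 135 CPM of *Gjb2*. When spots were assigned by marker scores without clusters, 619 spots scored highest for the inner root sheath, of which 382 lay in the hair shaft region. These held 1429 ± 165 CPM of *Gjb2*, 563 ± 52.4 CPM of *Gja1*, 189 ± 19.4 CPM of *Gjb6* and 80.1 ± 9.82 CPM of *Gjb5*. The 718 spots that the same scores assigned to the hair shaft held 1247 ± 207 CPM of *Gjb2* and 300 ± 18.9 CPM of *Gjb6*. With that assignment *Gjb2* was highest in the inner root sheath spots and *Gjb6* in the hair shaft spots. These levels are descriptions without a test.

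Among 23 listed connexins and pannexins, 13 had at least 100 UMIs, 10 passed the filter on low counts and 6 had no UMI in any kept spot. The lens connexin *Gja3* reached 26.9 ± 6.50 CPM in the hair shaft region and at most 10.6 ± 2.86 CPM in the other regions. The pannexins, which form channels of a separate family, differed from each other. *Panx3* was highest in the upper follicle (18.8 ± 2.73 CPM) and the epidermal region (10.4 ± 1.83 CPM) and at most 3.86 ± 0.901 CPM in the other regions. *Panx1* ran from 20.6 ± 1.38 CPM in the upper follicle to 31.2 ± 6.38 CPM in the hair shaft region. A further 4 genes with at least 100 UMIs (*Gja4*, *Gja5*, *Gjc1* and *Gjc3*) had region means of at most 9.97 CPM. Of the 15 pairs of regions, 11 were called for *Panx3*, 8 each for *Gja3* and *Gja4* and 7 for *Panx1*. In the same pairs 21.5% to 70.6% of all genes tested were called, so these counts do not set the genes apart.

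**Figure D5:**
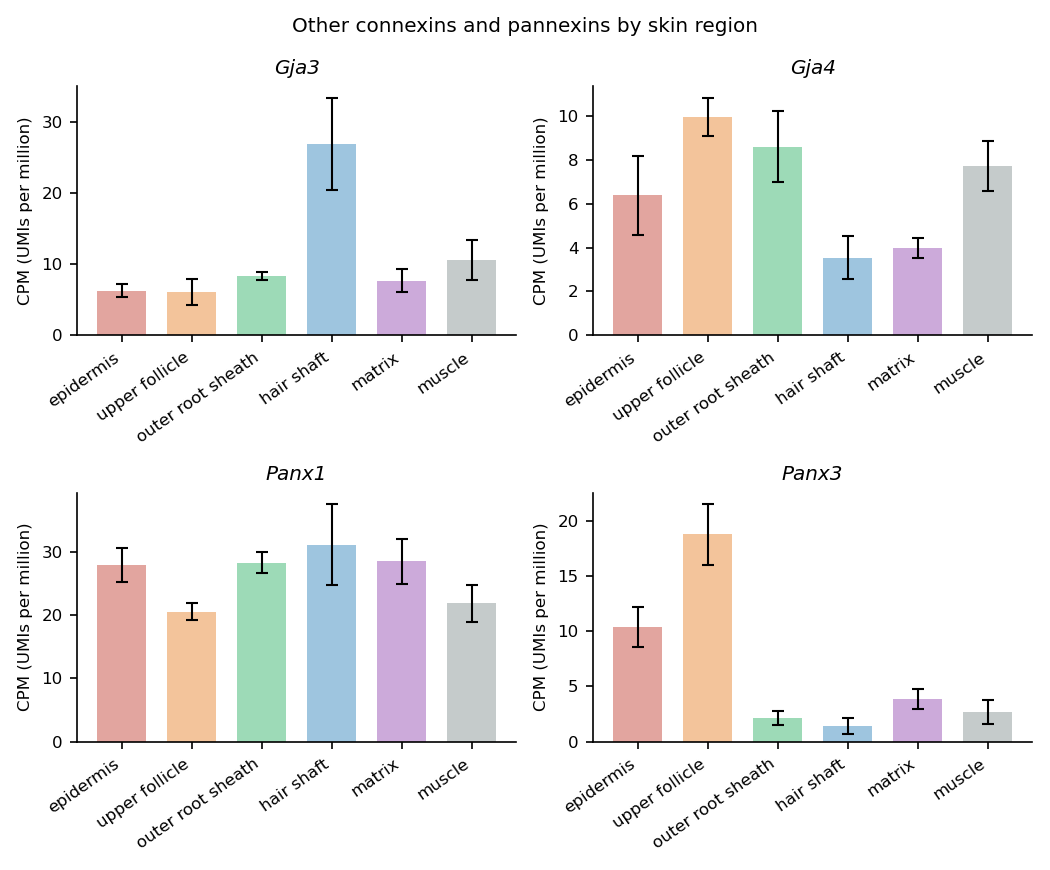
Levels of 4 further connexins and pannexins in CPM (y axis) in the 6 regions (x axis). Bars give the mean over 4 slices and whiskers the SD. *Gja3* is highest in the hair shaft region (26.9 CPM) and *Panx3* in the upper follicle (18.8 CPM).

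Among 20 genes of proteins that bind, anchor, phosphorylate or transport connexins, all were tested. Between the epidermal region and the upper follicle, 2 were higher and 7 lower in the epidermal region, where 10.9% of all genes were higher and 10.5% lower (median log2 -0.12 over the list, 0.00 over all genes). Over the 15 pairs the median of the list ran from -0.22 to 0.78. The lowest was for the epidermal over the hair shaft region, with 8 higher and 10 lower (30.3% and 29.5% of all genes). The highest was for the outer root sheath over matrix, with 13 higher and 3 lower (31.3% and 31.0% of all genes). *Ctnna1*, which encodes alpha-catenin of adherens junctions, was highest in the outer root sheath (327 ± 22.4 CPM) and low in matrix (149.5 ± 20.1 CPM) and muscle (142 ± 8.46 CPM). *Ctnnb1*, encoding beta-catenin, varied less, from 436 ± 25.8 CPM in the epidermal region to 649.8 ± 51.7 CPM in matrix. The tubulin genes *Tuba1b* and *Tubb5* were highest in matrix (1087 ± 57.4 and 774 ± 39.0 CPM), a region where *Gjb5* and *Gjb6* were low.

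For each connexin, the genes with the most similar pattern were taken from 12678 genes by Pearson correlation of log2 levels over the same 40 sums, without other family members. For *Gja1* these were *Myl12a* (0.88), which encodes a myosin light chain, *Pdzrn3* (0.87), *Dipk2a* (0.85), *Hif1a* (0.85), which encodes a hypoxia-inducible factor, and *Pde9a* (0.84). For *Gjb2* they were *Krt71* (0.91) and *Krt75* (0.89), keratins of the inner root sheath and the companion layer, with *Slc39a8* (0.91) and *Fzd5* (0.89). For *Gjb6* they were the ephrin receptor *Ephb3* (0.91), *Wdr26* (0.91), *Ctnna1* (0.89), *Stbd1* (0.87) and *Plk3* (0.86). For *Gjb5* they were *Fam57a* (0.86), the desmoglein gene *Dsg1a* (0.86), *Il1f5* (0.84), *Agpat5* (0.83) and *Fcho1* (0.81). No gene named here appeared in more than 1 of these lists. Among the 4 connexins themselves, *Gjb6* correlated with *Gja1* at 0.61 and with *Gjb2* at 0.61, and *Gja1* with *Gjb5* at -0.52. The sums share slices, sections and depth, and these values are descriptions without a test.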

How the data were processed

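Dorsal skin was profiled with Visium, and the authors deposited raw UMI counts from Space Ranger 2.0.1 (per the file headers) against mm10 (per the labels), for spots over tissue. The study set aside the fourth section as distorted. Whether that is slice 4 or a section within a slice is not given, so all spots were used. Leaving out slice 4 changed no call among the results reported. Spots with under 250 genes were removed and no doublet caller was run. Seurat 5.3.0 (R 4.3.3; 2000 variable genes, 30 components, 20 neighbors, resolution 0.65, the lowest giving 12 clusters) clustered spots without 27 genes, connexins included. A cluster was named after the marker list of greatest mean log2 fold (5 CPM added) where 4 markers reached log2 fold 1 and 1 was among the top 20 genes. This rule, and the split of the list of matrix and hair shaft into its keratins and its other genes, were set after clusters were seen. The unsplit list would name only the hair shaft cluster. UMI sums of each region in each slice were fitted in edgeR 4.0.16 (TMM, filterByExpr, quasi-likelihood, all 6 regions), with Benjamini-Hochberg adjustment over all genes in each pair of regions. Sums of a slice share its sections, so slice numbers pair them, and deviations of same-numbered sums from the region means correlated at 0.18, 0.11, 0.07 and 0.11 over 12678 genes. Sign-flip tests used numpy 2.4.6. Genes named in the text are the 4 connexins, listed family members of at least 10 CPM in a region, the 4 partners of highest mean and the 5 most correlated genes of each connexin. Some genes that this rule takes are not reported here. *Gja4*, *Gja5*, *Gjc1* and *Gjc3* were named after their values were seen. Members and lists were chosen with earlier results of these data known. DESeq2 1.42.0 and the other alternatives are given with their effects in the closing part.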

Additional observations from a re-analysis of the deposited data

Results flagged for a closer look

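For 140 sets of 4 slices, the gap between the most extreme slice and the nearest other slice was divided by the range of the set. In 8 sets (5.71%) the quotient exceeded Dixon's critical value, which chance does in about 5% of sets. The level of *Gja1* in the cluster led by pigment cell genes was 492 CPM in slice 3 and 439 to 444 CPM in the other slices (quotient 0.894). *Gjb6* in matrix was 73.2 CPM in slice 2 and 81.5 to 82.8 CPM elsewhere (0.862). The share of outer root sheath spots with a *Gjb6* UMI was 77.8% in slice 1, which held 63 such spots, and 84.6% to 85.7% elsewhere (0.858). *Gjb5* at step 2 was 44.3 CPM in slice 1 and 32.9 to 33.4 CPM elsewhere (0.956), and at step 5 it was 84.2 CPM in slice 3 and 74.97 to 76.1 CPM elsewhere (0.880). The ratio of *Gja1* to *Gjb2* in the outer root sheath was 1.31 in slice 2 and 1.06 to 1.10 elsewhere (0.867). The ratio of *Gja1* to *Gjb6* in muscle was 4.00 in slice 1 and 4.97 to 5.12 elsewhere (0.868). The ratio of *Gjb5* to *Gjb6* in the upper follicle was 0.179 in slice 3 and 0.240 to 0.241 elsewhere (0.982).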

How the results depend on the processing

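Of 60 differences between regions, 42 kept their direction and their side of the threshold under all 16 alternatives chosen at the outset, and no called difference was called in the opposite direction. DESeq2, a resolution of 0.6, a minimum of 1000 UMIs per spot and a fit without matrix (added after seeing the data) changed no call. Abbreviations are upper follicle (UF), outer root sheath (ORS) and hair shaft (HS), and values are log2 differences, first region minus second. Without a filter, *Gja1* UF-ORS lost its call (-0.27). With library size alone, *Gja1* epidermis-muscle (-0.19), *Gjb5* UF-muscle (-0.24) and *Gjb6* ORS-HS (-0.086) lost theirs and *Gja1* HS-matrix turned (-0.094); this scaling moved the median of all genes by up to 0.14 in pairs with HS. The replicate block added *Gjb2* matrix-muscle (0.14) and changed no other call. Leaving out 1 slice at a time gave ranges of -0.32 to -0.21 for *Gja1* epidermis-muscle (call lost without slice 1, -0.21, slice 2, -0.27, or slice 3, -0.25), -0.30 to -0.25 for *Gja1* UF-ORS, -0.41 to -0.19 for *Gjb6* UF-ORS, -0.34 to -0.14 for *Gjb6* ORS-HS, -0.45 to -0.18 for *Gjb5* UF-muscle and -0.21 to 0.037 for *Gjb5* UF-ORS, which turned without slice 2 (0.023) or slice 3 (0.037).

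With 16 clusters the ORS held 671 spots, of which 271 were among the 829 spots of the ORS region used here. It was led by *Spink12* and *Car6*, which were also among the leading genes of the UF cluster of 719 spots. UF held 541 spots. Calls were lost for *Gjb2* epidermis-UF (-0.28), *Gjb5* UF-muscle (-0.17) and *Gjb6* UF-ORS (-0.041). *Gjb2* ORS-matrix (-0.079) and ORS-muscle (-0.10) lost theirs and turned. Also turned were *Gjb2* matrix-muscle (-0.017) and *Gjb5* UF-ORS (0.17), UF-matrix (0.32) and ORS-matrix (0.15). *Gjb5* ORS-muscle (-0.34) and matrix-muscle (-0.49) and *Gjb6* matrix-muscle (-0.35) gained a call. With RPCA integration *Gjb5* UF-ORS (0.29), UF-matrix (0.50), UF-muscle (0.18) and ORS-matrix (0.21) turned. *Gjb6* ORS-HS (-0.13) lost its call, and *Gjb5* matrix-muscle (-0.32) and *Gjb6* matrix-muscle (-0.31) gained one. With regions from marker scores *Gjb2* epidermis-UF (-0.24) and ORS-matrix (0.22) and *Gja1* UF-HS (0.15) lost their calls. *Gjb6* epidermis-matrix (-0.018) and *Gjb5* UF-ORS (0.35), UF-matrix (0.067) and UF-muscle (0.056) turned. *Gjb5* ORS-matrix (-0.28) and *Gja1* HS-matrix (0.30) gained a call. In thinned spots *Gja1* epidermis-muscle (-0.18) and UF-ORS (-0.25) and *Gjb6* ORS-HS (-0.23) lost their calls. *Gjb5* UF-ORS turned (0.093), and *Gjb5* ORS-muscle (-0.48) and matrix-muscle (-0.35) gained a call. Shares fell to 52.2%, 19.5%, 18.3%, 41.5%, 19.5% and 23.0% for *Gjb5* and 36.5%, 55.8%, 65.0%, 64.6%, 37.97% and 36.8% for *Gjb6* in epidermis, UF, ORS, HS, matrix and muscle. Without the sebaceous cluster, UF-ORS was -0.061 for *Gja1* and -0.15 for *Gjb6*. With strips as units, which are parts of the same slices fitted as if separate, *Gjb6* ORS-HS lost its call (-0.14). There *Gjb6* matrix-muscle (-0.19) and *Gjb5* ORS-muscle (-0.27) gained one. Added after seeing the data, joining the slice 1 cluster to the ORS gave -0.16 for *Gjb6* ORS-HS and 0.061 for *Gjb5* ORS-matrix. Matrix and hair shaft as 1 region (written as matrix) gave *Gjb6* epidermis-matrix -0.64 and matrix-muscle 0.58, *Gjb5* UF-matrix -0.86, ORS-matrix -0.79 and matrix-muscle 0.54, and *Gjb2* ORS-matrix -0.041 and matrix-muscle 0.54. Leaving out clusters found in 1 slice removed no spot of the 6 regions and gave no separate values. The causes of these changes were not tested. Of the 4 genes *Gjb5* had the fewest UMIs (5566).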
